A study of Mus musculus with 4 samples.

Results

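NFIC ChIP-seq of mouse pancreas gave a merged list of 15824 peaks, of which 2538 (16.0%, 95% Wilson interval 15.5 to 16.6) lay in the first intron of a transcript and downstream of the nearest transcription start site (TSS). These peaks were taken from the annotation of the list as those placed in intron 1, whatever the number of introns, with a distance to the TSS above 0. The list was made from 3 NFIC ChIP libraries, obtained with an antibody against NFIC, and 1 library of input DNA, for which no antibody was used. All libraries came from the pancreas of wild-type mice of mixed strain, with ages of 8 to 12 weeks in the labels, and no cell type is given for a peak. The list is one table for all libraries and holds no value per library. Hence the spread between animals is not known, the depth is unknown, peaks are not replicates, and every interval below is a 95% interval that covers counting error only. The list records binding and not expression, and the labelled tissue could not be checked against marker transcripts.

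NFIC belongs to the nuclear factor I (NFI) proteins, with NFIA, NFIB and NFIX, which bind as dimers to a palindrome with the arms TTGGC and GCCAA. The first intron follows the first exon of a transcript, is often the longest intron of a gene, and is known to hold enhancers as well as the downstream edge of the promoter. In the adult pancreas most of the tissue consists of acinar cells, which make and secrete digestive enzymes.

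All peaks were 173 bp wide on the mm10 build. The 2538 first-intron peaks were assigned to 1899 genes, of which 1498 (78.9%, 77.0 to 80.7) had 1 such peak, 150 had 3 or more and 19 had 5 or more. The assigned gene was protein-coding for 2374 peaks (93.5%), a non-coding RNA for 159 and a pseudogene for 5. The intron belonged to the very transcript whose TSS was nearest for 1865 peaks (73.5%), and to a transcript of the same gene for 2404 (94.7%). The rule leaves out 272 of the 2810 peaks in an intron 1, because they lay upstream of the nearest TSS, which was then that of another transcript or gene. The closest on the inner side were those at *Golm1* at 103 bp (score 3.59), *Tab1* at 104 bp (4.58) and *Thnsl2* at 108 bp (4.98). On the outer side they lay at *Tmem259* at -1001 bp (5.58), *E130317F20Rik* at -1016 bp (10.2) and *Epb41* at -1024 bp (5.98). Positions nearer to a TSS belong to the promoter-TSS class of the annotation. The farthest members lay at *Kirrel3* at 233366 bp (6.57), *Adarb2* at 323411 bp (6.57) and *Cntnap2* at 378104 bp (4.98).

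Of the 10 first-intron peaks with the highest scores, 9 are shown with the 61 bases around their best NFI site, because they carry the strongest signal of the class. The NFI full site was defined as TGGCNNNNNGCCA, 13 bp with 8 fixed bases, and a match allowed 1 mismatch. A match without a mismatch is called exact. The sequences are read from the plus strand of the genome, 5′ to 3′, and capitals mark the 13 bases of the site.
Arid3b: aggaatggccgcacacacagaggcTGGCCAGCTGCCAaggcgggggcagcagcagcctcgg
Chd3: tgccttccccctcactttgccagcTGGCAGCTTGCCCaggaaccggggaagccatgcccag
N4bp2: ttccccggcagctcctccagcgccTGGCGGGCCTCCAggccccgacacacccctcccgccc
Ptp4a3: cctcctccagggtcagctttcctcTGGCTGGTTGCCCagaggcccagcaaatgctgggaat
Nuak2: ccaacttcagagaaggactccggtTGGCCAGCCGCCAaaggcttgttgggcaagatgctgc
Arhgef10l: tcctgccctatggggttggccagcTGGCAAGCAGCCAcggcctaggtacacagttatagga
Hif3a: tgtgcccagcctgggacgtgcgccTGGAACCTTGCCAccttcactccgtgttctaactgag
Vasn: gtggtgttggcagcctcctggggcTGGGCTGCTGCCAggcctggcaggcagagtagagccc
Sh3bp4: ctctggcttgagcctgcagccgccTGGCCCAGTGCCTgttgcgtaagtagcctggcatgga

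The highest score, 35.5, was that of the peak at *Arid3b*, which codes for a DNA-binding protein with an ARID domain. This peak, chr9:57831514-57831686, lay at 2634 bp, and its exact site spans chr9:57831542-57831554. The RefSeq copy used here places it outside intron 1 of the named transcript. The 173 bases of the peak hold 2 full sites, both in capitals on the plus strand:
Arid3b peak: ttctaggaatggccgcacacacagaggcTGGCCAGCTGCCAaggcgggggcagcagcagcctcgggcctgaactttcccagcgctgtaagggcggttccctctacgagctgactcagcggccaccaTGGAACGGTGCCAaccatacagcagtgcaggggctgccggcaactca

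The other 9 peaks scored from 27.3 to 32.9. The peak of *Chd3*, a chromatin remodelling helicase, lay at chr11:69365045-69365217 (score 32.9, 4295 bp from the TSS), at the far end of an intron of 4.33 kb. That of *N4bp2* lay at chr5:65764400-65764572 (30.9, 965 bp) and was the only one of the 10 in a CpG island. At *Ptp4a3*, which codes for a tyrosine phosphatase, the peak lay at chr15:73730493-73730665 (30.7, 5649 bp). At *Nuak2*, a kinase related to AMPK, it lay at chr1:132319328-132319500 (30.7, 3289 bp), and its exact site also had the outer T and A of the palindrome. The peak of *Arhgef10l*, a guanine nucleotide exchange factor, lay at chr4:140617462-140617634 (30.3, 31208 bp) and held an exact site. The peaks of *Hif3a*, a hypoxia-inducible factor subunit, of *Vasn*, a membrane protein that binds TGF-beta, and of *Sh3bp4*, an adaptor of endocytosis, lay at chr7:17060136-17060308 (29.7, 2205 bp), chr16:4643760-4643932 (27.9, 3901 bp) and chr1:89104482-89104654 (27.3, 34153 bp). All 10 held a full site, 3 held an exact one, 8 held 2 full sites, and 3 of the 10 genes also had a promoter-TSS peak. They were chosen by score, so their scores are given as a description.

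The spacing of the arms was next examined over all first-intron peaks. Both arms TGGC and GCCA without a mismatch and 5 bases apart were found in the central 200 bp of 389 peaks (15.3%, 14.0 to 16.8). In 5076 windows of the same length centred 1000 bp to each side of these peaks, the share was 0.355% (0.224 to 0.560), which is 43.2 times lower. At each of the other spacings from 0 to 12 bases, between 0.197% and 2.36% of the peaks held both arms, and between 0.0788% and 0.729% of the windows beside them. The exact site is not particular to first introns. It was present in 13.4% (12.9 to 14.0) of all peaks of the list and in 17.0% (15.7 to 18.5) of later-intron peaks. With 1 mismatch allowed, the full site was present in 56.6% of the first-intron peaks and in 9.30% of the windows beside them, a difference of 47.32 points (45.21 to 49.39). The site also sat near the middle of the peak. The best site was that with the fewest mismatches and, among equals, the one nearest the centre, in peaks and windows alike. Where several full sites were present this choice favours the centre, and its effect on the shares was not tested. The best site lay within 25 bp of the centre in 757 of the 1437 peaks that held one (52.7%, 50.1 to 55.3), against 28.0% (24.1 to 32.2) of the 472 windows beside them that held one, and the median distances to the centre were 23.0 and 43.0 bp.

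**Figure D1:**
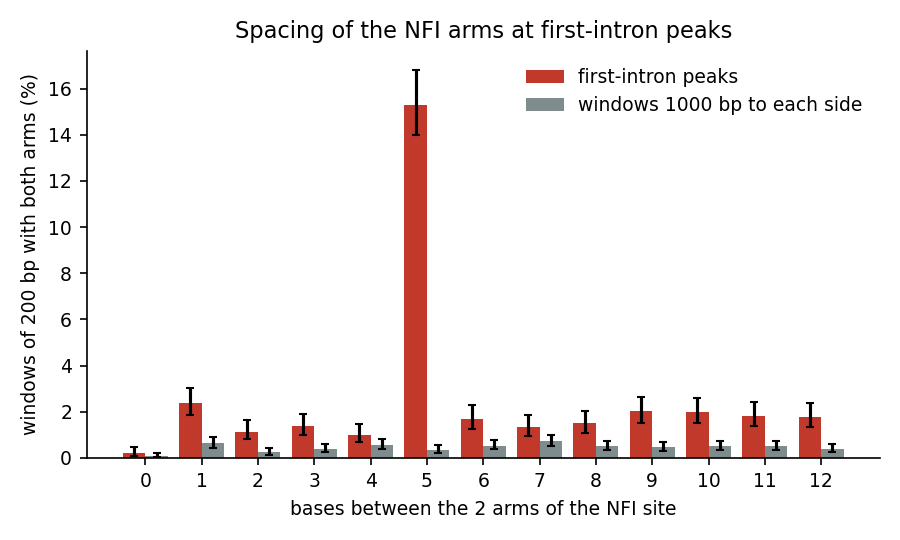
Share of 200 bp windows (vertical axis, %) that hold both NFI arms TGGC and GCCA without a mismatch, by the number of bases between them (horizontal axis), at the 2538 first-intron peaks and in the windows 1000 bp to each side, with 95% Wilson intervals. The bar at 5 bases reaches 15.3% at the peaks, and no other spacing exceeds 2.36%.

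To compare the binding of first introns with that of later introns per base, peaks were counted in 1 RefSeq transcript for each of 18801 protein-coding genes. It was the transcript with the longest genomic span. Exons and the bases from -1000 to 100 bp around any TSS were left out. First introns held 2569 peaks in 228 Mb, or 11.3 peaks per Mb (10.8 to 11.7), and later introns 3658 peaks in 669 Mb, or 5.47 per Mb (5.30 to 5.65). The ratio of the densities was 2.06 (1.95 to 2.16). Distance to the TSS differs between the 2 kinds of intron, and pooled over 8 bins of this distance the ratio was 1.35 (1.27 to 1.43). Here and for the exact sites below, distance was taken to the TSS of the counted transcript. The pooled values are thus not adjusted for distance to the nearest TSS of any transcript. Of the first-intron peaks described here, 2249 (88.6%) are among the 2569.

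First introns were densest in peaks next to the TSS, with 47.4 per Mb (43.2 to 51.9) from 101 to 1000 bp, where later introns had 30.4 (ratio 1.56, 1.06 to 2.39). From 1001 to 2000 bp the densities were 18.6 and 13.3 per Mb (ratio 1.40, 1.03 to 1.95). From 2001 to 5000 bp they were 10.4 and 8.52 per Mb, a ratio of 1.22 with the lower bound of its interval at 1.0 and the upper at 1.5. From 5001 to 10000 bp the density was 12.0 per Mb in first introns and 8.22 in later introns, a ratio of 1.46 (1.25 to 1.71). From 10001 to 20000 bp it was 11.8 and 7.33 per Mb, a ratio of 1.61 (1.41 to 1.84), and from 20001 to 50000 bp 10.2 and 6.65 per Mb, a ratio of 1.53 (1.37 to 1.71). From 50001 to 100000 bp the interval of the ratio included 1 (1.16, 0.994 to 1.34). Beyond 100000 bp the order was turned, with 2.60 peaks per Mb in first introns and 3.47 in later introns, a ratio of 0.748 (0.595 to 0.929).

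The same introns were then compared on exact NFI sites, which share 8 fixed bases but can differ at the others. First introns held 18.4 exact NFI sites per Mb and later introns 17.3. A peak centre lay within 100 bp of 401 of the 4201 exact sites in first introns (9.55%, 8.69 to 10.5) and of 645 of the 11534 in later introns (5.59%, 5.19 to 6.03). The difference was 3.95 points (3.0 to 4.96), and 2.26 points (1.26 to 3.27) when pooled over the 8 distance bins. Most exact sites had no peak in either class. Within first introns the share with a peak was 27.7% (21.9 to 34.4) from 101 to 1000 bp, 14.1% (10.4 to 18.9) from 1001 to 2000 bp, between 7.66% and 9.90% in each bin from 2001 to 100000 bp, and 4.08% (2.56 to 6.43) beyond. Later introns had 28.6% (11.7 to 54.6, 14 sites) from 101 to 1000 bp, 8.75% (4.30 to 17.0) from 1001 to 2000 bp, between 4.78% and 7.23% in each bin from 2001 to 100000 bp, and 4.42% (3.85 to 5.08) beyond. By bin, the interval of the difference excluded 0 from 2001 to 5000 bp (4.37 points, 1.18 to 7.46), from 10001 to 20000 bp (4.76, 2.36 to 7.41) and from 20001 to 50000 bp (2.26, 0.34 to 4.42), and included 0 in the other 5 bins. The first introns were lower by value next to the TSS (-0.88 points, -27.59 to 17.24) and beyond 100000 bp (-0.35, -2.0 to 2.08).

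The bases outside the 2 arms also went with binding. Where neither the T before TGGC nor the A after GCCA was present, 182 of 2791 exact sites in first introns had a peak (6.52%, 5.66 to 7.50). With 1 of the 2 bases present the share was 13.4% (11.6 to 15.4), and with both, as in the site of *Nuak2* printed above, it was 31.9% (52 of 163 sites, 25.2 to 39.4). The difference between both and neither was 25.38 points (18.64 to 32.93). In later introns the corresponding shares were 3.78%, 9.18% and 14.2%. The first introns exceeded the later ones by 2.74 points (1.77 to 3.79) with neither base and by 4.21 points (2.14 to 6.44) with 1. With both, the difference was 17.65 points (9.96 to 25.78). These 3 differences were not pooled over distance to the TSS.

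**Figure D2:**
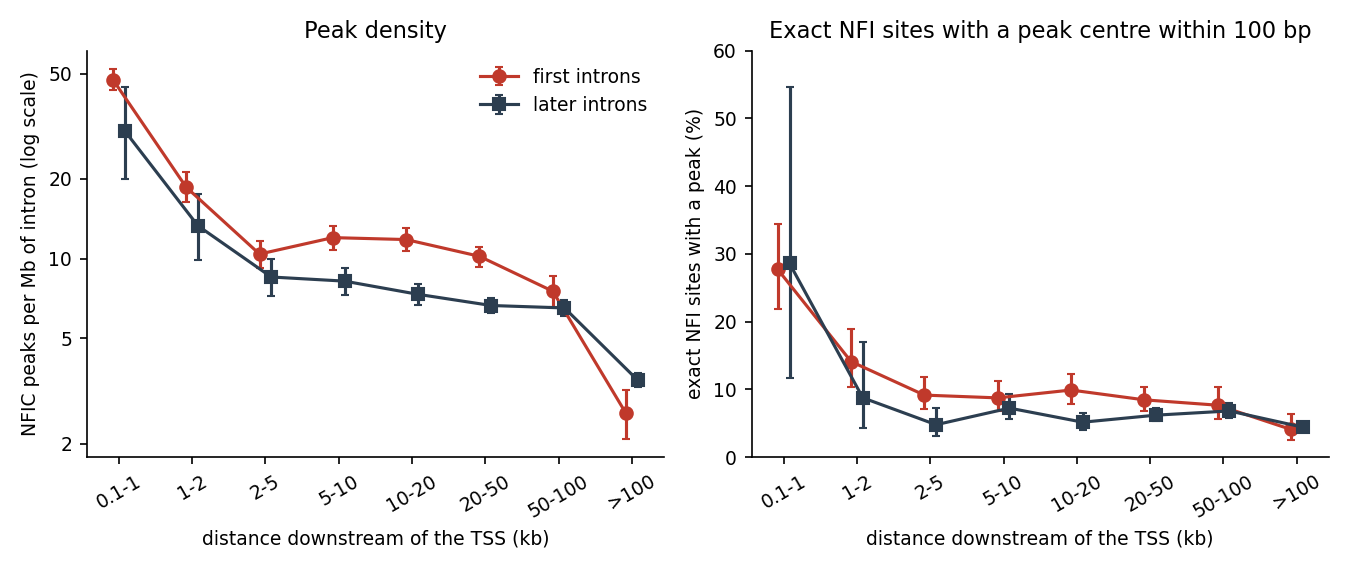
Left, NFIC peaks per Mb of intron (log axis) and right, share of exact NFI sites with a peak centre within 100 bp (%), by distance downstream of the TSS (kb), in first introns (circles) and later introns (squares) of 1 transcript per protein-coding gene, with 95% intervals for counting error. The interval of the density ratio, first over later introns, lies above 1 from 101 to 2000 bp and from 5 to 50 kb, and below 1 beyond 100 kb.

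Up to a length of 100000 bp, longer first introns more often held a peak. A longer intron has more bases that can hold a peak, and peaks per base were not compared between lengths. Of the 18801 first introns, 1854 (9.86%, 9.44 to 10.3) held at least 1 outside the windows around a TSS. The share was 0.820% for introns of up to 500 bp, 5.34% from 2001 to 5000 bp, 16.5% from 10001 to 20000 bp and 39.9% (36.2 to 43.8) from 50001 to 100000 bp, and 34.1% (29.7 to 38.8) above that. The median length was 18498 bp for the first introns with a peak and 2582 bp for those without. Within introns over 10000 bp, 625 of the 1786 peaks in them (35%, 32.8 to 37.2) lay in the 25% next to the first exon. The share in the 25% next to the second exon was 19.4% (17.7 to 21.3). These peaks had passed the rule on distance, which left out 272 peaks in first introns of any length, upstream of the nearest TSS. Where in their introns those lay was not examined, so the part of the rule in this difference was not tested.

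First-intron peaks lay at a median of 6624 bp from the nearest TSS (quartiles 1161 and 19707 bp), and their sequence changed with this distance. The 569 peaks within 1000 bp had a median GC content of 63.0%, and 254 of them (44.6%, 40.6 to 48.7) lay in a CpG island, against 2.39% of the 1969 peaks farther away. The SP motif GGGCGG, the GC box bound by SP and KLF factors, was present in 40.2% of the near peaks and in 7.52% of the others, a difference of 32.73 points (28.59 to 36.95). The motif GATAAG of GATA factors went the other way, with 2.81% and 9.55% (difference -6.74 points, -8.48 to -4.64), as did the E-box CAGCTG bound by dimers of PTF1A and other bHLH factors, with 14.1% and 24.8% (-10.78, -14.04 to -7.16). In later introns, the 43 peaks within 1000 bp had a median GC content of 57.5%, against 48.5% to 53.5% in the bins beyond. Their SP share was 34.9%, against 3.95% to 12.8%, and their CpG island share 23.3%, against 0.395% to 3.50%. For GATAAG it was 2.33%, against 8.88% to 10.5%, and for the E-box 20.9%, against 18.7% to 28.2%. These changes with distance were thus mostly not particular to first introns.

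The NFI full site also differed with distance. It was present in 51.0% (46.9 to 55.1) of the first-intron peaks within 1000 bp and in 58.3% of those beyond, a difference of -7.29 points (-11.92 to -2.65). The exact site was present in 10.9% and 16.6% (difference -5.71 points, -8.58 to -2.47). Whether these differences vary between motifs was not tested. From 1001 bp onwards the share with a full site lay between 57.1% and 59.8% in each distance bin. The near peaks exceeded the promoter-TSS peaks (36.0%) by 15.00 points (10.58 to 19.40) for the full site, while the difference in the share with an SP motif was -18.26 points (-22.55 to -13.83).

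**Figure D3:**
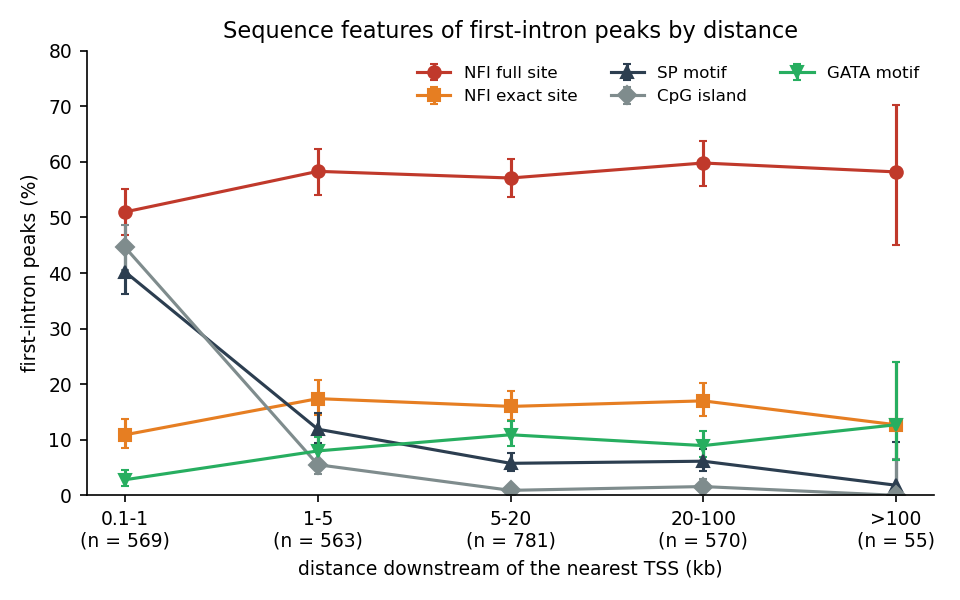
Share of first-intron peaks (vertical axis, %) with an NFI full site, an NFI exact site, an SP motif, a GATA motif or a CpG island annotation, in 5 bins of distance downstream of the nearest TSS (horizontal axis, kb), with 95% Wilson intervals. The SP motif and CpG islands mark the 569 peaks within 1 kb, and the NFI full site lies between 51.0% and 59.8% in all bins.

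Over all distances, first-intron peaks were compared with 2732 peaks in later introns and 3270 promoter-TSS peaks, whereas 51.8% of all peaks of the list held an NFI full site. The share was 56.6% (54.7 to 58.5) in first introns and 57.4% in later introns, a difference of -0.77 points whose interval (-3.45 to 1.90) included 0. Against promoter-TSS peaks (36.0%) the difference was 20.66 points (18.11 to 23.17). Of 15 motifs compared with later introns, the interval of the difference excluded 0 for 3, and for 1, the SP motif, at the Bonferroni level over 30 comparisons. The SP motif was present in 14.9% of the first-intron and 6.41% of the later-intron peaks (difference 8.45 points, 6.80 to 10.12). Among peaks beyond 1000 bp the difference was 1.57 points (0.12 to 3.07). The SP shares in first and later introns were 11.9% and 12.8% from 1001 to 5000 bp. They were 5.76% and 7.40% from 5001 to 20000 bp, 6.14% and 3.95% from 20001 to 100000 bp and 1.82% and 4.80% beyond. Among these bins first introns were thus higher only from 20001 to 100000 bp, and the difference was not pooled over them. The other 2 motifs of these 3 were the single NFI arm TTGGCA (36.5% and 40.1%, difference -3.59, -6.21 to -0.96) and the CTCF motif (0.591% and 1.39%, difference -0.80, -1.36 to -0.26). The single arm overlaps the full site, and without the copies that overlap one the interval of its difference included 0 (-2.34, -4.78 to 0.12).

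Against promoter-TSS peaks, 11 of the 15 motifs differed at the Bonferroni level. First-intron peaks more often held the E-box (22.4% and 12.7%), GATAAG (8.04% and 3.33%) and the FOX motif TGTTTAC (4.49% and 1.77%), and less often the SP motif (14.9% and 58.5%), the ETS motif CCGGAAGT (0.591% and 4.50%) and the CRE motif TGACGTCA (0.236% and 1.71%). The motif CAAGGTCA of NR5A2, an acinar nuclear receptor, was present in 1.97% of first-intron peaks, and in 1.60% of the windows beside them, a difference of 0.37 points (-0.23 to 1.07). The E-box was present in 9.93% of these windows, and without the copies that overlap a full site it was present in 20.2% of first-intron peaks and 9.85% of the windows. GATAAG was present in 6.23% of these windows, a difference of 1.81 points (0.60 to 3.10) from first-intron peaks. For the FOX motif the share was 2.74%, a difference of 1.75 points (0.87 to 2.72). The motif CGTGGGAA of RBPJ, a partner of PTF1A and of Notch, occurred at 0.906% of the first-intron peaks and in 0.335% of these windows, a difference of 0.57 points (0.21 to 1.04). For the AP-1 motif TGACTCA the shares were 3.74% and 3.55%, a difference of 0.20 points (-0.67 to 1.14). Each motif was sought as fixed letters on either strand, and a match is not a measured binding site of the factor.

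**Figure D4:**
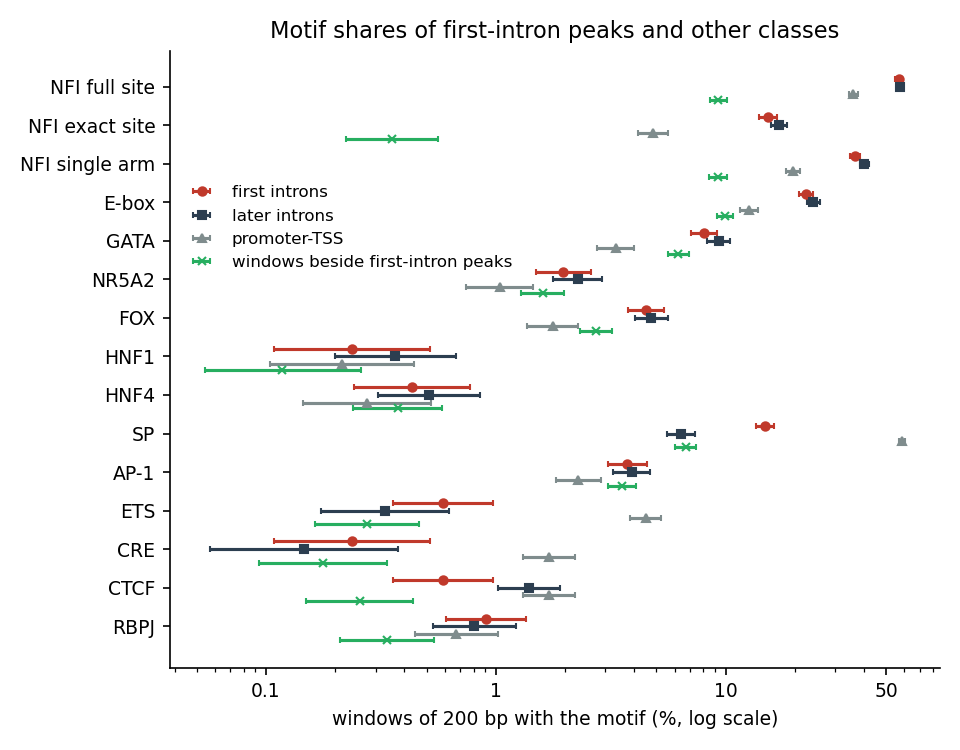
Share of 200 bp windows (horizontal axis, %, log scale) with each of 15 motifs (vertical axis) in first-intron peaks, later-intron peaks, promoter-TSS peaks and the windows 1000 bp to each side of first-intron peaks, with 95% Wilson intervals. First and later introns overlap for most motifs and part for SP (14.9% and 6.41%).

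The score of a peak is the value given by the authors, on a scale that is not stated, and serves here to rank peaks within the list. First-intron peaks had a median score of 6.77 (quartiles 5.18 and 9.16, highest 35.5), later-intron peaks of 6.57 (4.98 and 9.36, highest 68.1) and promoter-TSS peaks of 6.37 (4.98 and 8.76, highest 54.4). The highest score of first introns was thus below those of both other classes. At or above the upper quartile of the list, 9.16, the difference from later introns was -0.44 points (-2.82 to 1.95) and that from promoter-TSS peaks 2.68 points (0.44 to 4.94). The share at or above the median of the list, 6.57, was 51.6% over all peaks. First introns exceeded later introns by 1.32 points, an interval that included 0 (-1.37 to 4.02), and promoter-TSS peaks by 5.10 points (2.51 to 7.68). Among peaks beyond 1000 bp, the difference from later introns was 3.41 points (0.51 to 6.29). By distance, the share of first-intron peaks at or above the list median was 47.8% (43.7 to 51.9) within 1000 bp, 61.1% (57.0 to 65.0) from 1001 to 5000 bp, 53.0% (49.5 to 56.5) from 5001 to 20000 bp, 56.7% (52.6 to 60.7) from 20001 to 100000 bp and 41.8% (29.7 to 55.0) beyond. Later-intron peaks from 1001 to 5000 bp were at 58.4% (52.3 to 64.2).

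The number of NFI full sites went with the score. The median was 6.17 for the 1101 first-intron peaks with none, 7.07 for the 1206 with 1, 8.17 for the 206 with 2 and 11.4 for the 25 with 3 or more. Peaks with a full site were at or above the list median 12.98 points more often than those without (9.07 to 16.84), and peaks with 2 or more sites 13.28 points more often than those with 1 (6.54 to 19.43). Among peaks without a full site, those with a single arm TTGGCA exceeded those without it by 13.18 points (7.18 to 19.06). Between peaks with an exact site and peaks with 1 mismatch (56.8% and 61.0% at or above the list median), the interval of the difference included 0 (-4.16, -9.92 to 1.52). In the upper quartile of the list by score, 72.3% (68.8 to 75.6) of the 668 first-intron peaks held a full site, and in the lowest 46.3% (42.0 to 50.6) of 521. In later introns the median score was 6.17 with no full site, 6.77 with 1, 8.17 with 2 and 10.8 with 3 or more. Over all peaks of the list these medians were 5.98, 6.97, 8.37 and 10.8.

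**Figure D5:**
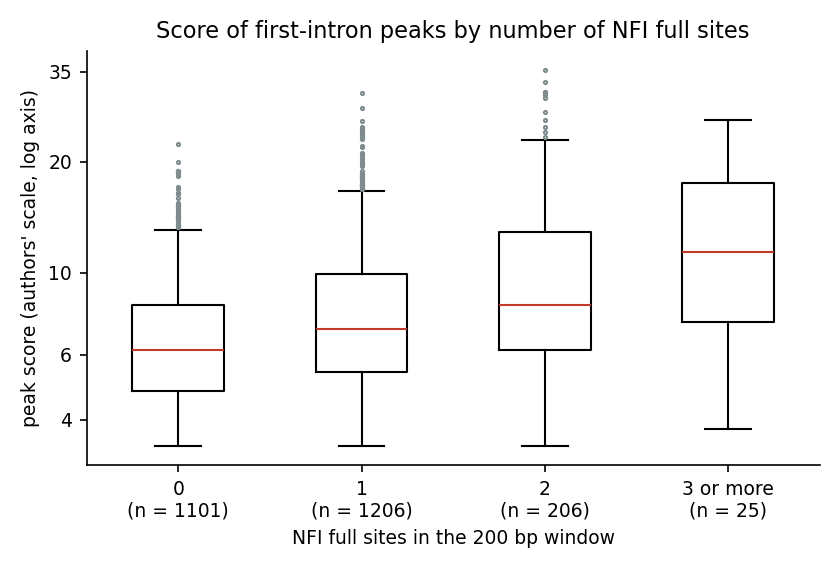
Peak score on the authors' scale (vertical axis, log) of first-intron peaks by the number of NFI full sites in their central 200 bp (horizontal axis). Boxes show quartiles and the median, whiskers reach 1.5 times the box height, and points lie beyond. The median is 6.17 without a site and 11.4 with 3 or more.

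Repeats and CpG islands were taken from the detailed annotation of the list. Each peak has 1 such entry, so a peak named for a CpG island has no repeat named, and repeats were not compared outside CpG islands. A repeat was named for 295 first-intron peaks (11.6%, 10.4 to 12.9) and for 14.4% of later-intron peaks (difference -2.76 points, -4.57 to -0.94), with 118 SINE, 82 LTR, 51 LINE and 23 DNA elements in first introns. A CpG island was named for 301 (11.9%) and for 1.21% (difference 10.65 points, 9.36 to 12.01). Beyond 1000 bp from the TSS the shares were 2.39% and 0.855%, a difference of 1.53 points (0.81 to 2.36).

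Among genes, 384 of the 1899 with a first-intron peak (20.2%, 18.5 to 22.1) also had a promoter-TSS peak, 366 (19.3%) also had a later-intron peak, and in 846 (44.5%) every peak of the gene was a first-intron peak. Of the protein-coding genes with a first-intron peak, 21.2% (19.3 to 23.2) also had a promoter-TSS peak and 19.5% (17.7 to 21.5) a later-intron peak. Over all protein-coding genes these shares were 13.9% and 8.32%, and the part of gene and intron length in the difference was not tested. A promoter-TSS peak was found for 18.9% of the genes with a first-intron and no later-intron peak and for 19.5% of those with the reverse, a difference of -0.58 points (-3.31 to 2.17).

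The genes with the most first-intron peaks included *Maml3*, *Bcor*, *Hivep3*, *Uck2* and *2010300C02Rik*. *Maml3*, a coactivator of Notch signalling, had 9, from 2911 to 215046 bp in an intron of 247 kb, with scores from 4.18 to 18.1, and 4 of them held a full site. *Bcor*, a corepressor that binds BCL6, had 8 with scores from 4.18 to 8.37, out of 22 peaks in all. *Hivep3*, a zinc finger protein, had 8 with scores from 3.98 to 24.5. *Uck2*, which codes for a kinase of nucleotide salvage, had 7 with scores from 6.57 to 16.7. *2010300C02Rik* also had 7, with scores from 4.38 to 15.5. The highest peak of *Bcor* lay below the highest of each of the other genes named. *Bcor* is also the only one of them on chromosome X, and whether this goes with its scores was not tested.

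Gene lists of the pancreas were read against a background of 8.24% (7.88 to 8.62), the share of the 21000 protein-coding genes with at least 1 first-intron peak. Among acinar transcription factors, 2 of 13 had one (15.4%, 4.33 to 42.2). All 13 had a peak of some class, as had 36.4% of all protein-coding genes. One of them was *Mecom*, whose best site is shown because it carried the highest score of this list in the class, with capitals as above:
Mecom: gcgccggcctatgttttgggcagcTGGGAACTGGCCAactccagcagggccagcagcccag

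*Mecom*, a zinc finger factor, had 3, with scores of 11.6 at 5700 bp, 6.57 at 101757 bp and 11.8 at 148242 bp (chr3:30361347-30361519). The first of them held an exact site and the other 2 a site with 1 mismatch. *Ptf1a*, *Rbpjl*, *Nr5a2*, *Gata4*, *Gata6* and *Bhlha15* had no first-intron peak by the rule.

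Of 32 digestive enzymes and granule proteins, 1 had a first-intron peak (3.12%, 0.554 to 15.7), and 22 had a peak of some class. Only 31 of the 32 are in the RefSeq copy that gives the background. It was *Pla2g1b*, the pancreatic phospholipase A2, at 1378 bp with a score of 5.18 and no full site. In the unfolded protein response, 5 of 30 had one (16.7%, 7.34 to 33.6). *Ern1*, which codes for the stress sensor IRE1, had 2, at 510 bp in a CpG island (score 8.17) and at 25500 bp (4.58). *Eif2ak3*, which codes for the sensor PERK, had 1 at 10252 bp (4.18). *Pdia4*, a disulfide isomerase, had 1 at 297 bp in a CpG island (5.18), and *Edem1*, a protein of the disposal of misfolded glycoproteins, 1 at 1355 bp (5.98). Only *Creb3l2*, a membrane-bound transcription factor, held a full site among these 5 genes, at 1942 bp (6.57).

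In the NFI family, 2 of 4 genes had a first-intron peak (50%, 15.0 to 85.0). *Nfic* itself had 1 at chr10:81424884-81425056, 2203 bp from the TSS, with a score of 8.56 and no full site. *Nfix* had 2, at 768 bp in a CpG island (11.2) and at 11276 bp (13.7), each with a site of 1 mismatch.

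Of 46 nuclear receptors, 9 had a first-intron peak (19.6%, 10.7 to 33.2). The highest were at *Rxra*, the shared partner of many receptors (23.3 at 7809 bp, with 2 full sites), at *Thra*, a thyroid hormone receptor (18.3 at 8856 bp), and at *Nr3c1*, the glucocorticoid receptor (17.9 at 26241 bp). In the TGF-beta and SMAD pathway, 5 of 31 had one (16.1%, 7.09 to 32.6). *Smad3*, a signal transducer of the pathway, had 4 between 38124 and 65877 bp, with scores of 16.1, 7.77, 13.7 and 10.8. *Ski* (9.36 at 16505 bp) and *Tgif1* (7.97 at 368 bp), both corepressors of SMAD proteins, followed.

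In secretagogue signalling and calcium release, 5 of 20 had one (25%, 11.2 to 46.9), the highest at *Itpr2*, an IP3 receptor (7.77 at 10372 bp), *Chrm3*, the muscarinic receptor of acinar cells (6.37 at 4845 bp), and *Stim1*, a calcium sensor (6.17 at 70299 bp). In the circadian clock, 3 of 19 had one (15.8%, 5.52 to 37.6), *Per2* (6.97), *Rora* (5.98) and *Cry1* (4.98). *Rora* is also one of the nuclear receptors.

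Lists of other cells of the pancreas were counted in the same way. Foregut and ductal transcription factors had 2 of 12 (16.7%, 4.70 to 44.8), *Onecut1* (5.18) and *Foxa3* (4.98). Ductal markers had 1 of 10, *Epcam* (8.96 at 336 bp, with an exact site), and stromal and endothelial markers 1 of 12, *Col1a1* (6.37 at 799 bp). Islet transcription factors had 0 of 12, with a Wilson upper bound of 24.2%, and islet hormones 0 of 6, with an upper bound of 39.0%. Taking 3 counts as the limit of a count of 0, these allow a share of up to 25% and 50%. No list was tested against the background, and genes differ in the length of their first introns, whose part in these counts was not tested.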

How the data were processed

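NFIC ChIP-seq (3 libraries) and input DNA (1 library) of mouse pancreas are represented by 1 merged peak list. Per the labels, reads were aligned to mm10, and the submitters' processing notes name BWA, Picard and MACS2, with no versions. In its methods section on NFIC ChIP-seq, after listing downloaded data, the paper names RUbioSeq+ and HOMER, both with peak calling among their tasks. It names HOMER for merging and annotation. Whether these steps cover the NFIC data as well as the downloaded data is not plain from its wording, so which tools made the NFIC list is uncertain. The authors deposited a peak score on an unstated scale, whose values lie mostly 0.200 apart, and the focus ratio, a fraction between 0 and 1 that no result here uses. Positions and distances are as deposited. The list has 0 columns of values per sample.

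Motifs were searched in 200 bp centred on the peaks in the RefSeq genome of GRCm38 (mm10), and introns were taken from its RefSeq annotation, whose release may differ from that of the authors: 2517 of the 2538 peaks (99.2%) fell in intron 1 of the transcript that the list names. Shares have Wilson intervals, differences of shares Newcombe intervals, peak counts exact Poisson intervals and ratios of densities exact conditional intervals. Densities and bound sites pooled over distance used the Mantel-Haenszel method. A difference was called where the 95% interval excluded 0. Functions were tested on simulated data. Python 3.11, scipy 1.17.1, pandas 2.3.3 and statsmodels 0.14.6 were used.

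The members, the comparisons and the 13 gene lists were chosen with earlier results of these data known. The genes named are those of the 10 highest scoring peaks, the 5 genes with the most peaks (ties kept), the 3 nearest and 3 farthest members, every gene with a first-intron peak in the lists of acinar transcription factors, digestive enzymes and granule proteins, the unfolded protein response and the NFI family, and the 3 highest in each other list. Some genes that this rule names are not reported here. The 6 acinar factors named as having no first-intron peak were chosen after the values were seen.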

Additional observations from a re-analysis of the deposited data

How the results depend on the processing

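No paired analysis was possible because the merged list holds no value per library, and for the same reason no library could be left out. Of 34 alternatives for 7 results, 28 kept the direction and the side of the threshold. The difference from later introns in the share with an NFI full site was 0.29 points with only peaks at or above the list median score and 0.83 points with only peaks over 1000 bp from the TSS, in place of -0.77 points, and its interval included 0 in all 7 alternatives. The difference from later introns in the share at or above the list median score was -0.15 points with 1 peak per gene, -0.44 points for the upper quartile of the list, and 3.41 points, with an interval above 0, over 1000 bp from the TSS. The cause was not tested. With only peaks at or above the list median score, 1376 first-intron peaks remained, by construction. The ratio of densities lay between 1.35 and 2.13 and the difference in bound exact sites between 2.26 and 4.14 points in all alternatives. The pooling over distance bins and the restriction to 100000 bp were chosen after seeing the data. The depth of the libraries is unknown, so it is not known how many weaker sites were missed, and mappability of the introns was not analysed.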
